A study of Mus musculus with 18 samples.

Results

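Bad, Bax and Bid are 3 pro-apoptotic genes of the Bcl-2 family, and their mRNA and ribosome footprints were followed in mouse embryos at E11.5. They are 3 of the 11231 genes measured in neural tube and forelimb bud and 3 of the 12064 genes measured in mesoderm. Each was matched to 1 gene identifier of the tables through the study's supplementary list of genes whose translational efficiency (TE) differed between neural tube (NT) and forelimb bud (FL), so the genes were chosen by their FL minus NT difference in TE. Every value from the NT and FL libraries is therefore given below as a description of the 3 genes. Tests of them are kept to the mesoderm libraries, which the choice did not use directly. The choice can still favour a high mesoderm TE, so these tests may not be neutral. RNA-Seq counted the mRNA and Ribo-Seq counted ribosome-protected fragments (RPFs), the pieces of mRNA that translating ribosomes shield from nuclease. TE is the ratio of the RPF to the RNA value of a gene. The 18 libraries fall into 6 groups of 3 replicates. The NT and FL samples were cut out by hand from wildtype FVB embryos, the neural tube from the level of the hind limb up to the rhombomeres. Both tissues came from the same embryos. For some experiments of the study neural tubes were frozen, and otherwise they were dissociated with papain and split for Ribo-Seq and RNA-Seq. The mesoderm libraries came from GFP+ cells sorted from R26-mTmGflox/+; Tg(T-cre)1LWD/J/+ embryos, in which Cre under the T (Brachyury) promoter switches a membrane reporter to GFP in descendants of the primitive streak. GFP therefore marks descent, and the sort pools many mesodermal tissues, the mesoderm of the limbs among them. All embryos were handled in cycloheximide, which stalls ribosomes. Whole tissues were used for NT and FL, so a change in the share of a cell type and a change per cell cannot be told apart.

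Apoptosis through the mitochondrial route is governed by the Bcl-2 family. Bax is an effector: once activated it inserts into the outer mitochondrial membrane and forms pores through which cytochrome c escapes to build the caspase-activating apoptosome. Bid and Bad carry only the BH3 motif of the family. Bid lies downstream of death receptors, where caspase-8 cleaves it into a form that activates Bax. Bad binds and neutralises anti-apoptotic relatives such as Bcl-xL, and is held inactive by 14-3-3 proteins after phosphorylation by Akt, protein kinase A and other kinases. Cell death of this kind removes surplus neurons in the neural tube and sculpts the limb bud.

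The coding sequences are short, and each begins in its own start codon context. In GRCm38 with the GENCODE vM21 annotation, Bax (ENSMUSG00000003873.11) lies on the minus strand at chr7:45461697-45466898, Bid (ENSMUSG00000004446.12) on the minus strand at chr6:120891930-120916853, and Bad (ENSMUSG00000024959.14) on the plus strand at chr19:6941861-6951899. The sequences around the start codon of the transcript with the longest coding sequence (Bax-201, Bid-201 and Bad-201) are shown because translation of these mRNAs is annotated to begin there. Each runs from 10 bases before the start codon to 4 bases after it. The capitals mark the base at position -3, the start codon and the base at +4, counted from the A of the start codon as 1.
Bax: agcggcaGtgATGGacg
Bid: agcttgtGccATGGact
Bad: caggatcCaaATGGgaa
All 3 have G at +4, which 49.3% of 20386 mouse coding genes with an annotated leader share. Position -3 is a purine in Bax and Bid, as in 84.0% of these genes, and a pyrimidine in Bad. A purine at -3 together with G at +4 was found in 41.0% of them. The leader of Bad is 462 bases long, longer than that of 88.1% of 21556 coding genes, and holds 1 upstream ATG. The Bax leader has 123 bases and also 1 upstream ATG, and the Bid leader has 174 bases and none. The coding sequences span 576 bases in Bax, 585 in Bid and 612 in Bad, against a median of 1185 over coding genes, and only 14.3% to 16.0% of genes have a shorter one. The counts leave out the first 15 and last 5 codons, which is 10.4% of the codons of Bax, 10.3% of Bid and 9.80% of Bad. The tables name each gene by the identifier of its canonical UCSC transcript (uc009gvi.1 for Bax, uc009dnv.1 for Bid and uc008gjn.2 for Bad), whose structure was not used here, so these lengths belong to the annotated transcripts above. Exons of the antisense gene Gpr137 cover 118 bases of the Bad coding sequence, and exons of the same-strand gene Gm45808 cover 192 bases of that of Bax, while no exon of another gene covers that of Bid. Whether counting used the strand is not given in the sources used here.

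The libraries held between 11000015 and 50136443 reads in the tables, and 65 to 6299 reads lay behind each value of the 3 genes. Counting error alone gives a log2 TE a standard error of 0.03 to 0.05 for Bax, 0.07 to 0.11 for Bad and 0.11 to 0.20 for Bid, below the SD between the replicate pairs of each tissue. The tissue labels held: the summed level of 7 measured neural markers (of 16 listed) was 55334 to 156059 normalized reads in NT and 6712 to 8824 in FL, and that of 7 measured limb markers (of 17) was 3344 to 5991 in NT and 32711 to 39809.5 in FL. The FL RPF libraries 1 and 2 stood apart from FL RPF library 3 (r = 0.89 and 0.90, against 0.98 between 1 and 2). NT RPF library 3 also stood apart from NT RPF libraries 1 and 2, with r = 0.93 to each, against 0.99 between those 2. Its r with RNA of the same replicate was 0.84, against 0.90 and 0.92 in NT replicates 1 and 2. Across genes, log2 RPF correlated with log2 RNA of the same FL replicate at r = 0.73 and 0.74 in replicates 1 and 2, and at 0.91 in replicate 3 (11231 genes, which share their library). The SD of log2 TE over genes was 1.59 and 1.54 in FL pairs 1 and 2, 0.86 in FL pair 3, and 0.91, 0.79 and 1.17 in NT pairs 1 to 3. The red blood cell genes Hba-a2 and Hba-x (2 measured of 10 listed) summed to 86106 to 167626 normalized reads in FL RPF and 49771 to 67016 in NT RPF, and to 13319 to 23800 in FL RNA and 11036 to 19713 in NT RNA. Of the other marker lists, 3 of 5 endothelial genes summed to 3448 to 4419 in NT and 2179 to 4742 in FL, and the macrophage gene Csf1r (1 of 3) was at 461 to 1181 in NT and 391 to 1786 in FL. The part of these library differences in the results below was not tested.

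Bax was the most abundant of the 3 mRNAs in every tissue. Per kilobase of annotated coding sequence without the excluded codons its RNA level was 5789 ± 1167 normalized reads in NT (SD, n = 3), 3890 ± 199 in FL and 4913 ± 819 in mesoderm. The RNA level of Bad per kilobase was 759 ± 179, 676 ± 104 and 940.3 ± 245 in the same order. That of Bid was 322 ± 188, 225 ± 56.1 and 256 ± 12.3. The effector was thus present at several times the level of either BH3-only gene, and within each tissue the RNA ranges of the 3 genes did not overlap. The mesoderm table was normalized apart from that of NT and FL, which limits how far its levels can be set beside theirs.

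**Figure D1:**
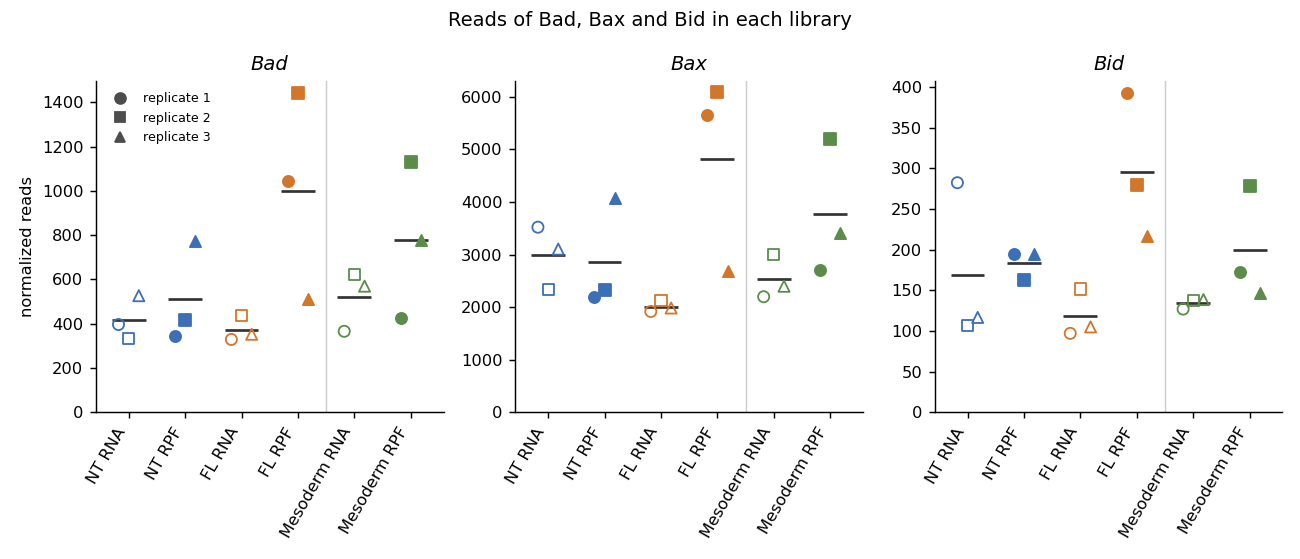
Normalized reads (linear axis from 0) of Bad, Bax and Bid in all 18 libraries, with open symbols for RNA, filled symbols for RPF, the symbol shape giving the replicate and a bar at the mean of 3. In FL, RPF replicates 1 and 2 of Bax, at 5663 and 6094, lie far above replicate 3 at 2684, while the FL RNA values lie between 1918 and 2120.

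On average, Bax had less mRNA in FL than in NT and more footprints. Its RNA libraries held 3522, 2335 and 3105 normalized reads in NT replicates 1 to 3, and 1918, 2120 and 1984 in FL. FL minus NT was -0.55 ± 0.32 on the log2 scale (SE), and 19.1% of all genes had a lower RNA difference. Its RPF libraries held 2196, 2327 and 4072 normalized reads in NT, and 5663, 6094 and 2684 in FL. FL replicates 1 and 2 were above all NT values, but FL replicate 3 was below NT replicate 3, and FL minus NT was 0.72 ± 0.32. The log2 TE of Bax was -0.68, 0.00 and 0.39 in the NT pairs and 1.56, 1.52 and 0.44 in the FL pairs. The lowest FL pair exceeded the highest NT pair by less than the spread within either tissue. The mean log2 TE was -0.10 ± 0.54 in NT (SD, n = 3) and 1.17 ± 0.64 in FL, a difference of 1.27 ± 0.45 (SE), or 2.41-fold.

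Bid, the link from death receptors to Bax, had the fewest reads. Its RNA libraries held 283, 107 and 117 normalized reads in NT and 97.1, 152 and 105 in FL. NT replicate 1 stood above the other 5, which overlapped, and FL minus NT was -0.39 ± 0.38 on the log2 scale (SE). Its RPF libraries held 194, 163 and 194 normalized reads in NT and 393, 279 and 216 in FL, with a difference of 0.65 ± 0.38. Of all genes, 73.6% had a lower RPF difference. The log2 TE of Bid was -0.54, 0.60 and 0.73 in the NT pairs and 2.01, 0.88 and 1.04 in the FL pairs. The FL pairs lay above the NT pairs, the nearest at 0.88 and 0.73, a gap within the counting error of a single pair. The mean log2 TE was 0.26 ± 0.70 in NT and 1.31 ± 0.61 in FL (SD, n = 3), a difference of 1.04 ± 0.53 (SE), or 2.06-fold. Most of it came from replicate 1, where RNA was highest in NT and RPF highest in FL.

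Bad, the BH3-only protein that Akt and 14-3-3 proteins restrain, had mRNA levels that overlapped between the tissues. Its RNA libraries held 396, 333 and 527 normalized reads in NT and 329, 438 and 353 in FL, with FL minus NT at -0.15 ± 0.38 on the log2 scale (SE). Its RPF libraries held 346, 416 and 773 normalized reads in NT and 1045, 1441 and 511 in FL. FL replicates 1 and 2 were above all NT values, FL replicate 3 lay between NT replicates 2 and 3, and the difference was 0.93 ± 0.38. The log2 TE of Bad was -0.19, 0.32 and 0.55 in the NT pairs and 1.66, 1.71 and 0.53 in the FL pairs. The ranges of the tissues overlapped, since FL replicate 3 fell just below NT replicate 3. The mean log2 TE was 0.23 ± 0.38 in NT and 1.30 ± 0.67 in FL (SD, n = 3), a difference of 1.08 ± 0.53 (SE), or 2.11-fold.

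**Figure D2:**
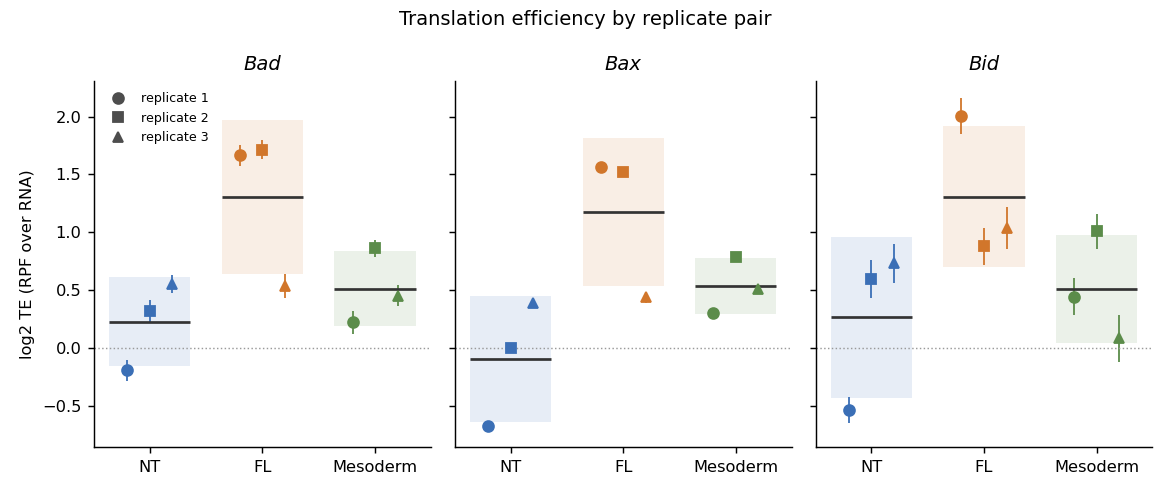
log2 TE of Bad, Bax and Bid in each replicate pair of NT, FL and mesoderm, with error bars for the counting error (1 SE), a line at the mean and a shaded band of 1 SD on either side. FL pairs 1 and 2 of Bad and Bax lie between 1.52 and 1.71, whereas FL pair 3 lies at 0.53 and 0.44, close to NT pair 3 at 0.55 and 0.39.

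The replicates differed in how far FL lay above NT. Within a replicate number, FL minus NT in log2 TE was 2.24, 1.53 and 0.04 for Bax in replicates 1 to 3. For Bad it was 1.86, 1.39 and -0.02. For Bid it was 2.54, 0.28 and 0.31. Matched by number, Bax and Bad thus differed between the tissues in replicates 1 and 2 and hardly in replicate 3, and Bid differed mainly in replicate 1. No source ties the numbers to embryos. Deviations of same-numbered NT and FL libraries from their group means correlated from -0.58 to -0.02. The differences by number therefore depend on a matching that the data do not bear out. In replicate 3 the RPF values of Bax and Bad were lower in FL than in NT, with a difference of -0.60 on the log2 scale for each gene, and so were their RNA values, with differences of -0.65 and -0.58. TE in FL exceeded TE in NT in all pairs for 2 of the 3 genes, Bax and Bid, and for 9.16% of all genes. The rule used this contrast, and nothing is read from these counts.

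**Figure D3:**
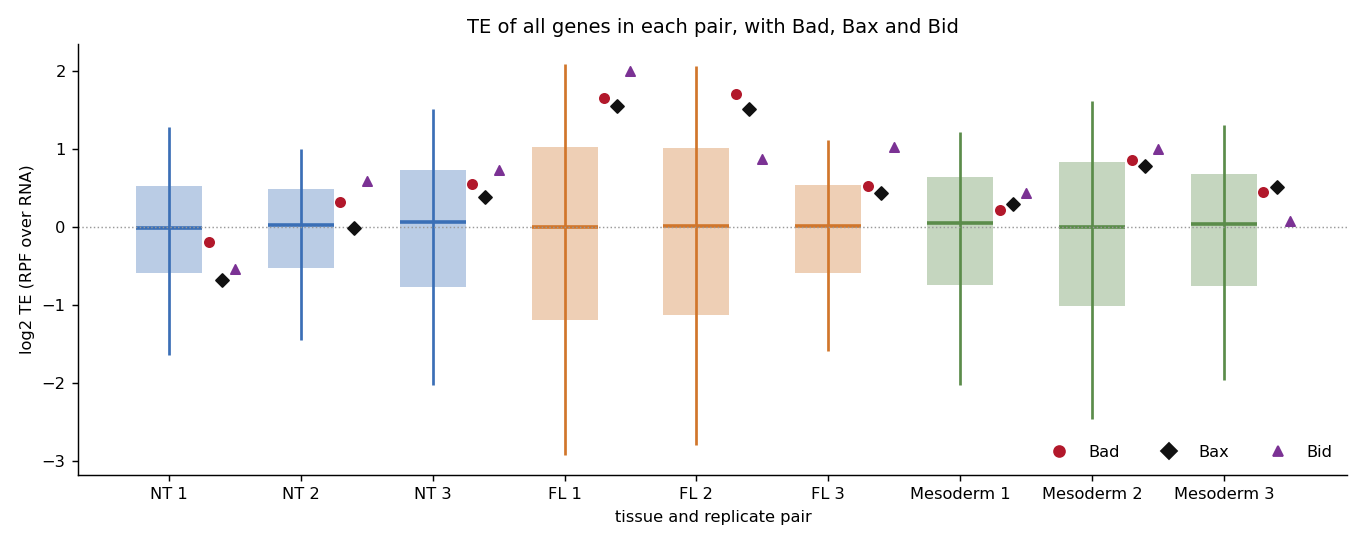
log2 TE of all genes in each of the 9 replicate pairs (box from the percentile 25 to 75, line from the percentile 5 to 95, bar at the median), with Bad, Bax and Bid beside it. The widest spreads are those of FL 1 and FL 2, with SDs of 1.59 and 1.54, and these are also the pairs in which Bad and Bax are highest.

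The spread of TE over all genes put these values in proportion. In FL pair 1 the log2 TE of Bax was above that of 86.2% of genes, of Bad above 88.1% and of Bid above 94.0%. In FL pair 3, where all 3 values were lower than in pair 1, the shares were 69.9%, 74.7% and 93.3%. In the NT pairs Bax ranged from above 22.4% to above 62.1% of genes, Bad from 40.7% to 68.3% and Bid from 27.0% to 80.2%. The 3 genes thus lay in the upper part of the distribution in each FL pair, which the choice of the genes favours. In NT pair 3 the shares were 62.1% for Bax, 68.3% for Bad and 74.9% for Bid. With the log2 TE of each pair scaled to one spread, FL minus NT was 1.13 for Bax, 0.83 for Bad and 0.88 for Bid. This scaling was chosen after seeing the data.

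Fitted over all 11231 genes with limma, the difference in TE between FL and NT passed an adjusted p of 0.2 and 2-fold for 0.125% of genes as higher in FL and for 0.276% as lower. Of Bad, Bax and Bid, 0 of 3 did, although all 3 differences were at least 2-fold. An unadjusted p under 0.05 was reached by 1 of the 3 with limma, against 16.9% of all genes. With edgeR it was reached by 3, against 15.7% of all genes, and with DESeq2 by 3, against 19.1%. edgeR called 0 of the 3, with 0.160% of genes higher and 0.187% lower, and DESeq2 called 1, Bax, with 5.08% higher and 2.55% lower. Dissociated neural tube cells were split for Ribo-Seq and RNA-Seq, and no such step is given for the forelimb buds. Both tissues came from the same embryos, though no source ties the embryos to the replicate numbers. With replicate as a block limma called 1 gene higher and 5 lower in place of 14 and 31, and with replicate as a block within tissue 1 and 3, with 0 of the 3 genes in either. Without replicate 3 of both tissues limma called all 3, but then 20.7% of all genes were higher and 22.3% lower. An unadjusted p under 0.05 was then reached by 2 of the 3, beside 55.7% of all genes. Without replicate 1 or without replicate 2 it called 0 of the 3 and 0 of all genes, with 160 and 265 genes at an unadjusted p under 0.05 and none of the 3 among them. The members were chosen for this contrast, so the calls describe how it rests on the replicates and carry no test of the genes.

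**Figure D4:**
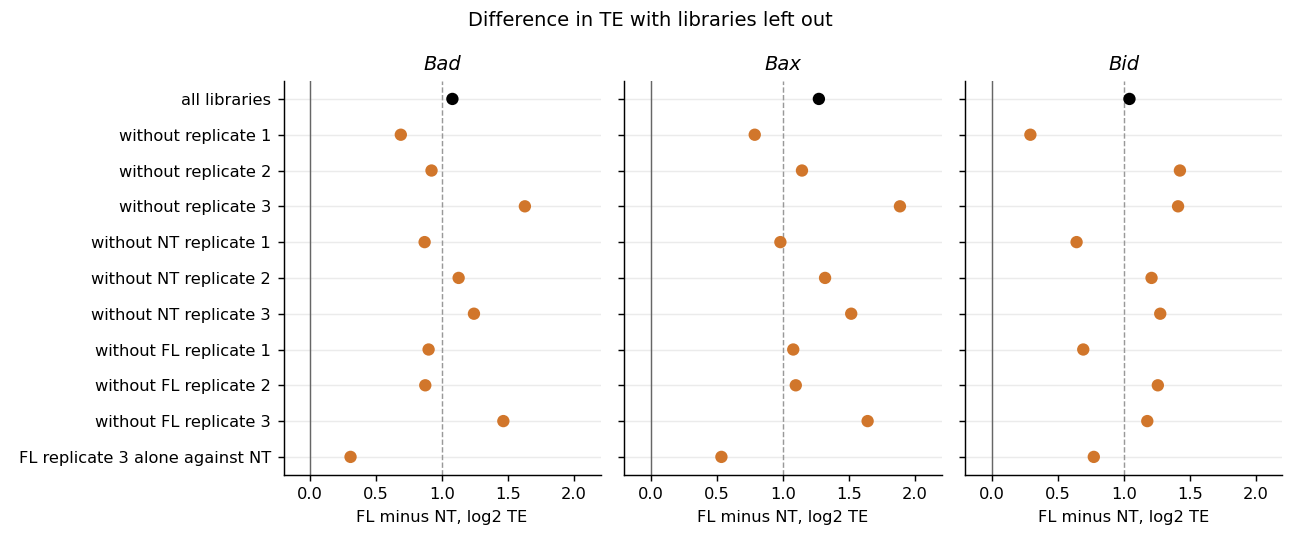
FL minus NT difference in log2 TE of Bad, Bax and Bid with all libraries (black) and with libraries left out (orange); the dashed line marks 2-fold. Every value is above 0, from 0.29 for Bid without replicate 1 to 1.89 for Bax without replicate 3, and FL replicate 3 alone gives 0.31 for Bad and 0.53 for Bax.

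With FL replicate 3 as the only forelimb pair, a choice made after seeing the data, FL minus NT was 0.31 for Bad, 0.53 for Bax and 0.77 for Bid on the log2 scale, and no member reached 2-fold. Against NT replicates 1 and 2 only, also chosen after seeing the data, FL replicate 3 gave 0.47 for Bad, 0.78 for Bax and 1.005 for Bid. The size with FL replicate 3 thus depended in part on NT replicate 3. Leaving out replicate 1 gave 0.69 for Bad, 0.79 for Bax and 0.29 for Bid. Leaving out replicate 3 gave 1.63, 1.89 and 1.41. The direction held in each of these, which the choice of the genes favours, and in most of them the size moved by more than 1.5 times.

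Averaged over NT and FL, log2 TE relative to the median gene was 0.74 ± 0.27 for Bad (SE), 0.76 ± 0.27 for Bid and 0.51 ± 0.23 for Bax. This mean comes from the same libraries as the difference that chose the genes, and TE was spread more widely in FL pairs 1 and 2 than in any NT pair, so it is given with no test. By limma, 30.4% of all genes were above the median at an adjusted p under 0.05. With libraries left out the mean ranged from 0.61 to 0.94 for Bad, from 0.58 to 0.96 for Bid and from 0.40 to 0.70 for Bax, above the median gene in each case.

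The mesoderm gave a set of libraries that the choice of the genes did not use. Bax RNA was 2198, 3009 and 2398 normalized reads in replicates 1 to 3, and Bax RPF was 2709.5, 5200.5 and 3419. Its log2 TE was 0.30, 0.79 and 0.51, above 0 in every pair. Bad RNA was 366, 622 and 569.8, Bad RPF was 426, 1131 and 779, and its log2 TE was 0.22, 0.86 and 0.45. Bid RNA was 127, 138 and 139, the tightest set of values of the 3 genes, Bid RPF was 173, 278 and 147, and its log2 TE was 0.44, 1.01 and 0.08. Replicate 2 was highest for all 3 genes, and it also had the widest spread of log2 TE over genes (SD 1.30, against 1.05 and 1.06). Hba-x stood at 84280.2 normalized RPF reads in this replicate, 9339.6 in replicate 1 and 18362 in replicate 3, and Csf1r at 4854, 1227 and 1799.8 in the same libraries, and their part in the TE of the 3 genes was not tested. The sorted cells held limb markers at a summed 21742 to 27226 normalized reads and neural markers (6 measured) at 9927 to 15767.

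Relative to the median gene of the mesoderm, log2 TE was 0.50 ± 0.18 for Bax (SE, limma with replicate as a block, adjusted p = 0.029) and 0.48 ± 0.19 for Bad (adjusted p = 0.041). Bid had nearly the same value, 0.48 ± 0.23, with a wider error, and did not pass the threshold (limma, adjusted p = 0.09). Above the median were 32.0% of all 12064 genes and below it 34.2%, so a call in either direction was common. Among the pathway genes from the study's NT and FL list, mesoderm TE often shared the sign of the FL minus NT difference. Prelid1 was among the exceptions. The share over all genes may therefore not be a neutral comparison for the 3 genes, and this was not tested. For all 3, between 67.7% and 68.6% of genes were lower. Without the block no member passed (adjusted p = 0.19 for Bax, 0.34 for Bad and 0.26 for Bid), without replicate 2 Bad was at 0.29 (adjusted p = 0.14), and without replicate 3 neither Bad nor Bax passed, at 0.51 each (adjusted p = 0.17 and 0.22). By their means, TE in mesoderm lay between those of NT and FL for each gene, at 0.53 ± 0.24 for Bax, 0.51 ± 0.33 for Bad and 0.51 ± 0.47 for Bid (log2, SD, n = 3). The mesoderm range overlapped that of FL for all 3 genes and that of NT for all 3, so neighbours in this order did not separate beyond their spread.

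Over the 12 NT and FL libraries, Bad and Bax followed each other closely. The Pearson r of their log2 levels was 0.93, which placed Bax at rank 167 of 10766 other genes by likeness to Bad, and Bad at rank 96 by likeness to Bax. Bid was less like them, with r = 0.69 to Bad (rank 1661 by likeness to Bid) and 0.79 to Bax (rank 529). Among the 3102 genes with a symbol, those most like Bad were Ndufb11 (r = 0.98), 1700052K11Rik (0.97) and Ndufa13 (0.97), of which Ndufb11 and Ndufa13 encode subunits of respiratory complex I. Those most like Bax were Clpp, a protease of the mitochondrial matrix (r = 0.98), Ubald1 (0.97) and Commd4 (0.97). Those most like Bid were Slc9a3r1 (r = 0.92), Mrps18b, a protein of the mitochondrial ribosome (0.92), and Cd9 (0.92). The points share libraries and depth, and RPF and RNA libraries enter together, so these values are a description. The choice of Bad, Bax and Bid by FL minus NT TE in these libraries favours a shared profile. The symbols come from the study's lists, so the named neighbours are drawn only from the genes those lists hold.

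The wider apoptotic pathway was described with 6 lists of 97 genes, of which 34 had a gene identifier. The symbols come from the study's supplementary tables, and 22 of the 34 are there because the study called their TE different between NT and FL on these samples, so their count is not independent evidence of a direction. limma called 0 of the 34 higher and 0 lower in FL, with 18 at an unadjusted p under 0.05, beside 16.9% of all genes. edgeR also called 0 in either direction, and DESeq2 called 13 higher and 0 lower, beside 5.08% and 2.55% of all genes. Without replicate 3 limma called 18 higher and 11 lower, beside 20.7% and 22.3%, and with FL replicate 3 alone it called 0, with 0 at an unadjusted p under 0.05. The median FL minus NT log2 TE of the 34 was 0.55, beside 0.01 over all genes. Another 8 have a symbol only through a shortened list of the study that holds genes of extreme mesoderm TE (Bcl2l2, Bok, Cflar, Mdm4, Mfn2, Ywhab, Ywhae and Ywhaq), so their mesoderm values were fixed by that choice and are given with no test. Of the other 26, limma called 10 above the median TE of the mesoderm and 10 below, beside 32.0% and 34.2% of all genes. Most of the 26 were listed by their FL minus NT TE, which can favour a mesoderm TE of the same sign. Without the replicate block 9 of these 20 calls were lost (Cdkn1a, Chchd4, Immt, Mapk8, Mfn1, Opa1, Phlda3, Siva1 and Tradd, adjusted p = 0.064 to 0.41).

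**Figure D5:**
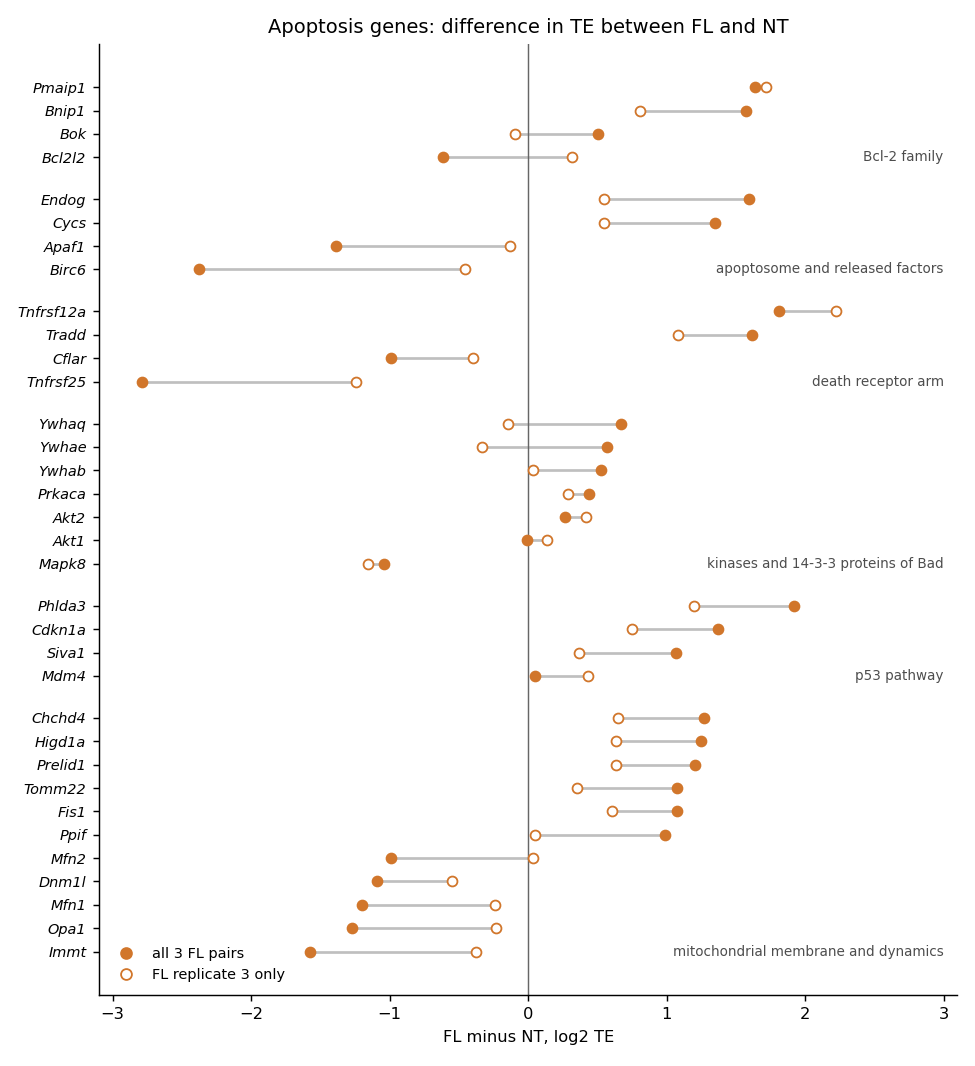
FL minus NT difference in log2 TE of 34 genes in 6 lists, with all 3 FL pairs (filled) and with FL replicate 3 as the only FL pair (open). 22 genes differ by at least 2-fold with all pairs and 6 with FL replicate 3 alone, and for 28 of 34 the open point lies nearer to 0.

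Among Bcl-2 relatives, 4 of 23 listed genes were measured with a symbol. Pmaip1, which encodes the BH3-only protein Noxa, had RNA of 36.6, 15.4 and 42.9 normalized reads in NT and 279.8, 209 and 273 in FL. Its RPF was 22.4, 16.3 and 26.1 in NT and 540.4, 544 and 663 in FL, so that FL exceeded NT many times over in every replicate, replicate 3 included. Its FL minus NT difference was 3.07 in log2 RNA and 1.64 in log2 TE. Bnip1 had a difference of 1.57 in log2 TE and in the mesoderm a log2 TE of 1.23 above the median (limma, adjusted p = 2e-04). Bok, an effector-type relative of Bax, and Bcl2l2, which encodes the survival protein Bcl-w, had differences of 0.50 and -0.61, and mesoderm values of -2.01 and -2.83. With FL replicate 3 alone the differences were 1.72 for Pmaip1, 0.81 for Bnip1, -0.09 for Bok and 0.32 for Bcl2l2, so that the last 2 turned in sign, as they did without replicate 1 (-0.044 and 0.15). Pmaip1 was at -0.09 in the mesoderm.

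Downstream of Bax, Cycs, which encodes cytochrome c, was among the genes of high TE. Its RNA was 1678, 1427 and 1932 normalized reads in NT and 1101, 1112 and 1042 in FL, and its RPF was 2873, 2869 and 3882 in NT and 7075, 7110.4 and 2901 in FL. As for Bax, FL replicate 3 fell within the NT range of RPF while replicates 1 and 2 lay above it. The difference was 1.35 in log2 TE, and in the mesoderm Cycs was 1.81 above the median (limma, adjusted p = 6.7e-05). Endog, a mitochondrial nuclease, had a difference of 1.60 and a mesoderm value of 1.28 (adjusted p = 0.00015). Apaf1, the scaffold of the apoptosome, had negative values of both, -1.39 and -1.14 (adjusted p = 0.0012), and so had Birc6, a large inhibitor of apoptosis, with -2.38 and -1.70 (adjusted p = 7.8e-05). In FL replicate 3 alone the differences were 0.55 for Cycs, 0.55 for Endog, -0.13 for Apaf1 and -0.45 for Birc6.

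In the death receptor arm that leads to Bid, the adaptor Tradd had an FL minus NT log2 TE of 1.62 and the receptor Tnfrsf12a 1.81, and with FL replicate 3 alone these were 1.08 and 2.22. Tnfrsf12a rested on low counts, a mean of 47.8 normalized RNA reads in NT and 35.8 in FL. Its log2 TE ran from -1.57 to 0.94 in the NT pairs, and its difference had an SE of 0.74. Cflar, which encodes the caspase-8 regulator cFLIP, was at -0.99 and the receptor Tnfrsf25 at -2.79, the latter on a mean of 33.3 normalized RNA reads in NT and 66.3 in FL. The RPF values of Tnfrsf25 were near the floor, at 28.9, 6.51 and 7.25 normalized reads in NT and 0, 2.13 and 11.9 in FL. Cflar was at -0.40 and Tnfrsf25 at -1.24 with FL replicate 3 alone. In the mesoderm Tradd was above the median at 0.75 (limma, adjusted p = 0.013), while Tnfrsf12a was at 0.40 (adjusted p = 0.32) and Cflar at -1.92. Tnfrsf25 was below the median at -2.85 (limma, adjusted p = 0.00017), on RPF values of only 5.96, 14.5 and 6.77 normalized reads.

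Among the regulators of Bad, the 14-3-3 genes Ywhab, Ywhae and Ywhaq had mesoderm values of 1.61, 1.68 and 1.76 in log2 TE relative to the median, by which they came to be listed. Akt1 and Akt2 were below the median, at -1.57 and -1.18 (limma, adjusted p = 5.9e-05 and 0.00047). Mapk8, which encodes the kinase JNK1, was below at -0.58 (adjusted p = 0.024), and Prkaca, the catalytic subunit of protein kinase A, was at 0.40 (adjusted p = 0.074). FL minus NT in log2 TE was 0.52 for Ywhab, 0.57 for Ywhae, 0.67 for Ywhaq, 0.44 for Prkaca, 0.26 for Akt2, -0.01 for Akt1 and -1.04 for Mapk8. With FL replicate 3 alone, Ywhae and Ywhaq were at -0.34 and -0.15, while Mapk8 was at -1.16.

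Of the p53 pathway, Phlda3, Cdkn1a and Siva1, targets of p53 that restrain Akt signalling, arrest the cell cycle and promote apoptosis, had FL minus NT differences of 1.92, 1.37 and 1.07 in log2 TE and mesoderm values of 1.03, 0.94 and 0.84 above the median (limma, adjusted p = 0.00066, 0.00091 and 0.0016). The differences in log2 TE were 1.20, 0.75 and 0.37 with FL replicate 3 alone. FL minus NT in log2 RNA was 0.67, 1.03 and 0.78. Mdm4, an inhibitor of p53, was at 0.05 in log2 TE between the tissues and at -1.97 in the mesoderm, and without replicate 3 the former was -0.60.

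Of the genes of the mitochondrial membrane and its dynamics, 11 of 16 were measured with a symbol. The small membrane and intermembrane proteins Chchd4, Higd1a, Prelid1, Tomm22 and Fis1 had FL minus NT log2 TE of 1.27, 1.25, 1.21, 1.08 and 1.08, and Ppif, encoding cyclophilin D, had 0.99. The fusion and fission GTPases and the cristae protein Immt were all negative, with Mfn2 at -0.99, Dnm1l at -1.09, Mfn1 at -1.20, Opa1 at -1.27 and Immt at -1.57. With FL replicate 3 alone the positive values shrank to between 0.05 for Ppif and 0.65 for Chchd4, and the negative ones to between -0.55 for Dnm1l and -0.23 for Opa1, with Mfn2 at 0.03. In the mesoderm 3 of the 11 were above the median, Ppif at 1.34, Higd1a at 0.89 and Chchd4 at 0.55 (limma, adjusted p = 0.00013, 0.0013 and 0.018). Prelid1 was below it at -0.95, Opa1 at -0.75, Mfn1 at -0.63 and Immt at -0.57 (adjusted p = 0.00077, 0.0049, 0.045 and 0.032), and Mfn2 was at -1.43. Fis1, Tomm22 and Dnm1l were at 0.18, 0.25 and 0.01 and did not pass the threshold.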

How the data were processed

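The authors deposited normalized reads (a signal scaled per library by DESeq's effective library size), one table for neural tube and forelimb bud and one for mesoderm. Per the labels and methods, adapters were trimmed with cutadapt, reads aligned to mm10 with Bowtie2 and unique reads counted on coding sequences of canonical UCSC genes without the first 15 and last 5 codons; versions are not given in the sources used here. Whole reads were recovered from the steps between values (100% whole within 0.02 reads in all 18 libraries). Depths, groups and markers are given in the report.

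The log2 TE is log2(RPF + 1) minus log2(RNA + 1), so fold changes of low genes are understated. limma 3.58.1 (mean-variance trend, R 4.3.3) was fitted over all genes of a table with no filter on low values: the interaction of library type and tissue (called at an adjusted p under 0.2 and 2-fold), the mean TE over both tissues and, with replicate as a block, mesoderm TE, the last 2 centred on the median gene (adjusted p under 0.05). All adjustments are Benjamini-Hochberg. The mean over both tissues had been planned as a test, but shares its libraries with the choice of genes and is given as a description. The mesoderm numbers pair libraries made from the same cells, and deviations of same-numbered libraries from their group means correlated at 0.57 to 0.74. Intervals by counting cover counting error only. Alternatives were edgeR 4.0.16 (quasi-likelihood) and DESeq2 1.42.0 on the recovered reads, other pseudocounts (0.5, 8), a minimum mean of 100, other centring and scaling, replicate blocks and libraries left out. The scripts were tested on simulated data.

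The members, pathway and marker lists were chosen with earlier results of these data known. 1 gene of the pathway lists is not reported here. Every other listed gene with an identifier is named or counted, and likeness was computed over genes averaging 100 or more normalized reads in NT and FL. Symbols come from supplementary lists of the study, which pair 29.2% of the genes of the neural tube and forelimb table and 28.4% of the mesoderm table, so a check of TE against gene length over all genes would be void. Replicates are called biological by the study.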

Additional observations from a re-analysis of the deposited data

Results flagged for a closer look

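Fis1, which encodes a mitochondrial fission protein, had a log2 TE below 0 in all 3 NT pairs (-0.70, -0.39 and -0.05) and above 0 in all 3 FL pairs (0.96, 0.91 and 0.23). Only this crossing of 0 set it apart from the other listed genes. Tradd and Higd1a, among others, also had every FL pair above every NT pair. Fis1 is listed because the study called its TE different between NT and FL on these samples. Its fitted FL minus NT difference of 1.08, which limma did not call, is therefore given as a description with no test. With FL replicate 3 as the only FL pair the difference was 0.61.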

How the results depend on the processing

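FL minus NT in log2 TE stayed above 0 for Bad, Bax and Bid under the 9 leave-outs and the 12 other alternatives run. It ranged over leave-outs from 0.69 to 1.63, 0.79 to 1.89 and 0.29 to 1.42. The genes were chosen for a positive value of this contrast, so its sign over these settings carries no test of them. The replicate blocks cannot move the estimate in this balanced design. Within replicate 3, Bad was at -0.02. With FL replicate 3 alone Bad moved to 0.31. The counts of genes called, 14 higher and 31 lower in FL, moved to 570 and 286 with DESeq2, to 1 and 5 with a replicate block, to 1 and 3 with a replicate block within tissue, and to 0 and 0 with FL replicate 3 alone or with FL replicate 3 and NT replicates 1 and 2. Scaling the pairs to one spread left 13 and 7. Over leave-outs they ran from 0 to 2329 and from 0 to 2504. Deviations of same-numbered libraries from their group means correlated from -0.58 to -0.02 between NT and FL and from -0.28 to 0.35 between RPF and RNA of a tissue. In this contrast limma called none of Bad, Bax and Bid with or without a block, so the block had no call of them to change.

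The mean TE over NT and FL ranged over leave-outs from 0.61 to 0.94 for Bad, 0.40 to 0.70 for Bax and 0.58 to 0.96 for Bid, and edgeR and DESeq2 gave 0.55 and 0.56 for Bax. The number of genes above the median, 3418, ran from 1736 to 3847 over leave-outs.

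Mesoderm TE ranged over leave-outs from 0.29 to 0.64 for Bad, 0.36 to 0.63 for Bax and 0.21 to 0.69 for Bid. Without the replicate block Bad (0.48) and Bax (0.50) no longer passed, and 2036 genes lay above the median in place of 3866. Adjusted p ran from 0.019 to 0.34, from 0.018 to 0.22 and from 0.082 to 0.42. Among the listed genes the sign turned over leave-outs for Pmaip1 (-0.23 to 0.036) and Dnm1l (-0.048 to 0.074), and for Dnm1l with a minimum mean of 100 (-0.022). The sign of FL minus NT turned with libraries left out for 7 of the 34 listed genes (Akt1, Bcl2l2, Bok, Mdm4, Mfn2, Ywhae and Ywhaq). The cause of these movements was not tested. Bid rests on as few as 65 reads, and 3 replicates a group limit every comparison.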
